A study of Mus musculus with 6 samples.

Results

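The collagen genes of mouse white fat were taken from the deposited expression table as every row whose gene name was Col, a number, a and a number. The rule found 44 of 21959 rows: 11 fibrillar, 6 basement membrane, 6 beaded-filament and 9 FACIT collagens (fibril-associated collagens with interrupted triple helices). The other 12 were 3 hexagonal network, 2 multiplexin, 4 transmembrane, 1 anchoring fibril and 2 further collagens. RNA sequencing had been run on white adipose tissue of mice, of the gonadal depot per the series text, with 3 libraries of genotype WT (replicates 10, 11 and 12) and 3 of genotype ++Oxtr (replicates 7, 8 and 9). The table's headers call the ++Oxtr libraries tg. The labels give no promoter, construct, strain, sex, age or diet for either group. They do not say whether each library came from its own animal, so each p-value rests on the spread among these libraries, and that spread may be technical.

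Collagens are secreted proteins of 3 chains wound into a triple helix, and each gene encodes a single chain. Fibrillar collagens of types I, III and V build the cables of the interstitial matrix, type IV forms the sheet-like basement membrane that wraps each adipocyte and each capillary, and type VI makes beaded filaments between them. FACIT collagens sit on the surface of fibrils. In fat this mesh bears the load of the enlarging adipocyte and is made by stromal cells, vascular cells and adipocytes themselves.

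The libraries held 14314517 to 19186696 counts, of which 0.942% (++Oxtr replicate 8) to 1.22% (WT replicate 11) fell on collagen genes. A count of 0 allows up to 3 counts in a library, or 0.156 to 0.21 CPM (reads of a gene relative to the scaled size of its library), and such floors cover counting error only. Oxtr, the oxytocin receptor gene that the genotype names, was at 22.0, 61.4 and 45.2 CPM in WT and 90.7, 89.7 and 81.8 CPM in ++Oxtr. All 12 adipocyte markers were detected, with a summed level of 30296 to 38548 CPM in WT and 31611 to 36604 CPM in ++Oxtr. Markers of multiciliated epithelium, a cell type foreign to fat, summed to 8.08, 8.95 and 32.7 CPM in WT replicates 10, 11 and 12 and to 8.45, 168 and 40.3 CPM in ++Oxtr replicates 7, 8 and 9. ++Oxtr replicate 8 thus stood apart from the rest in these markers. Fewer cells of a type and less RNA per cell cannot be told apart in whole tissue.

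With all 6 libraries in the edgeR fit, the tested collagens, each gene counted alike, were not shifted to one side. Such a count does not weigh genes by level, and the summed level is given below. Of the 44 genes, 35 had enough counts to be tested, and none passed an adjusted p of 0.05 by edgeR's quasi-likelihood test, where 0% of the 13566 genes tested passed. On the log2 scale the median fold change, ++Oxtr over WT, was 0.04 over the 35 tested collagens and 0.004 over all genes tested. Of the 35, 16 were on the lower side, or 45.7%, against 49.2% of all genes, and 19 were on the higher side, where 50.8% of all genes were. The collagen median depended on single libraries. Without ++Oxtr replicate 9 it was -0.10, with 21 collagens on the lower side. Without ++Oxtr replicate 7 it was 0.15, with 15 on the lower side. At an unadjusted p under 0.05 there was 1 lower collagen (Col5a2), against a background of 4.47% of all genes tested, and 1 higher collagen (Col27a1), against 4.44%. The groups did not overlap in 2 collagens that were lower in ++Oxtr (Col5a1 and Col5a2; background 7.61%) and in 1 that was higher (Col12a1; background 7.45%). DESeq2 passed 1 lower collagen at an adjusted p of 0.05, Col5a2, against 0.708% of all genes, and 0 higher ones, against 0.693%.

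**Figure D1:**
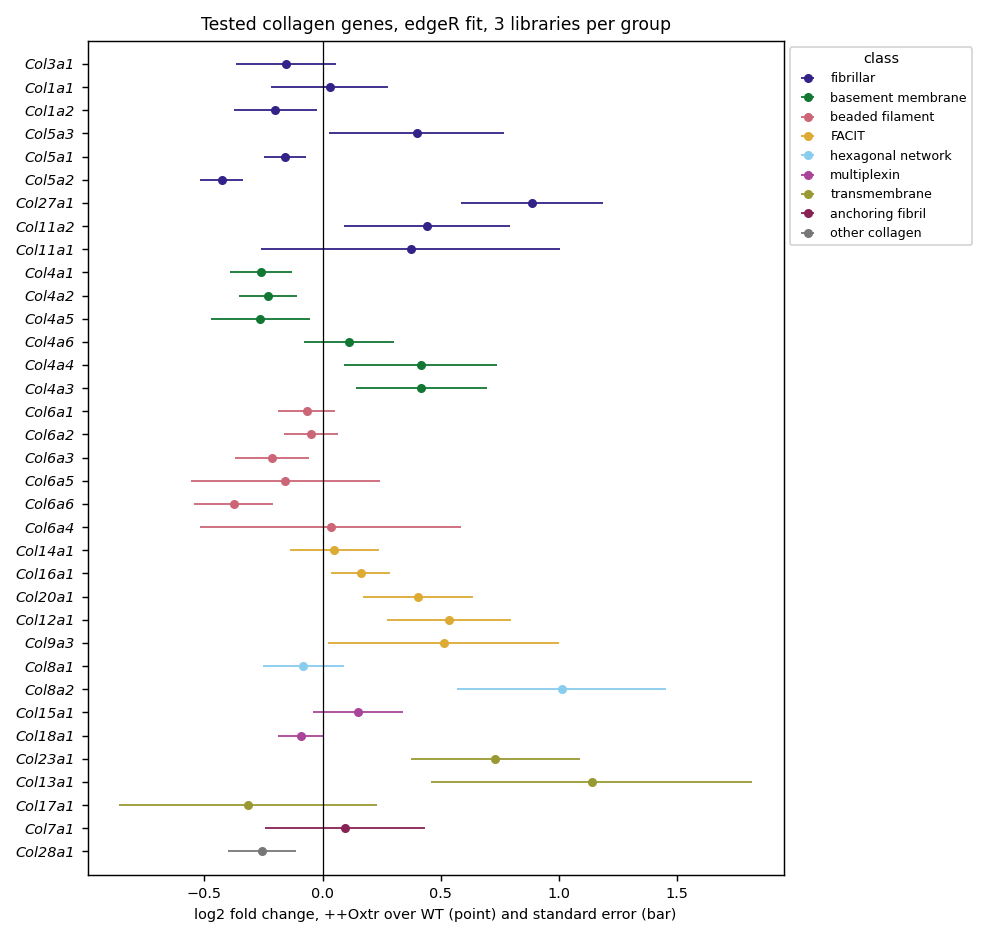
Fitted log2 fold change, ++Oxtr over WT, of the 35 tested collagen genes (points, with the standard error as bars), ordered by class and within a class by mean level. The points lie between -0.43 for Col5a2 and 1.14 for Col13a1, and the widest bars belong to genes of low counts.

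By class, the median log2 fold change was 0.03 for 9 tested fibrillar collagens, of which 4 were on the lower side. It was -0.06 for the 6 basement membrane collagens, 3 of them on the lower side, and -0.11 for the 6 beaded-filament collagens, 5 of them on the lower side. The 5 tested FACIT collagens all lay on the higher side, and their median was 0.40. The class medians depended on single libraries. The FACIT median was 0.17 without ++Oxtr replicate 9 and 0.18 without ++Oxtr replicate 8. The fibrillar median ran from -0.16 without ++Oxtr replicate 9 to 0.15 without ++Oxtr replicate 7, and the basement membrane median from -0.13 to 0.05 without the same libraries. The beaded-filament median ran from -0.26 without ++Oxtr replicate 9 to -0.0067 without ++Oxtr replicate 8. Differences between the classes were not tested.

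Levels between genes were compared by the deposited FPKM, which divides by gene length. The lengths in the table count all annotated exons of a gene (12426 bases for Col1a2), so a gene with long minor transcripts reads low. On this scale the highest collagen over all libraries was Col4a1, at a mean of 284 FPKM, then Col3a1 (254), Col4a2 (194), Col6a1 (116) and Col1a1 (95.5). Col4a1 was at 314 ± 33.9 FPKM in WT (SD, n = 3) and Col3a1 at 272 ± 0.365, while in ++Oxtr they were at 254 ± 10.1 and 237 ± 73.0 FPKM (SD, n = 3). Their order in ++Oxtr therefore lay within the spread. Next came Col15a1, Col1a2, Col5a3 and Col6a2, at 84.3, 73.2, 67.0 and 56.6 FPKM. Each of these overlapped with the next in its range over libraries, while Col15a1, at 68.2 FPKM or more, lay above Col6a2, at 60.7 or less, in every library. At the other end 16 of the 44 genes had a mean under that of Col27a1, at 0.632 FPKM.

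The summed collagen FPKM was 1468, 1556 and 1465 in WT replicates 10, 11 and 12. In ++Oxtr replicates 7, 8 and 9 it was 1319, 1225 and 1467, so the groups overlapped through ++Oxtr replicate 9. This difference was not tested. Of the highest collagens named above, Col4a1, Col3a1, Col4a2, Col6a1, Col1a2 and Col6a2 were on the lower side in the edgeR fit. Col1a1, Col15a1 and Col5a3 were on the higher side. The shares of the summed collagen FPKM overlapped between the groups in each of the 4 main classes. In WT replicates 10, 11 and 12 the fibrillar share was 37.2%, 36.9% and 40.4%, and ++Oxtr replicates 7, 8 and 9 had 37.0%, 37.6% and 42.9%. Basement membrane collagens made up 39.0%, 36.6% and 33.2% in WT and 35.2%, 35.5% and 29.8% in ++Oxtr. The beaded-filament share was 16.1% ± 1.17 in WT and 16.2% ± 1.12 in ++Oxtr, and the FACIT share 1.65% ± 0.195 and 1.94% ± 0.327 (SD, n = 3). Among all 6 libraries ++Oxtr replicate 9 had the highest fibrillar and the lowest basement membrane share.

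**Figure D2:**
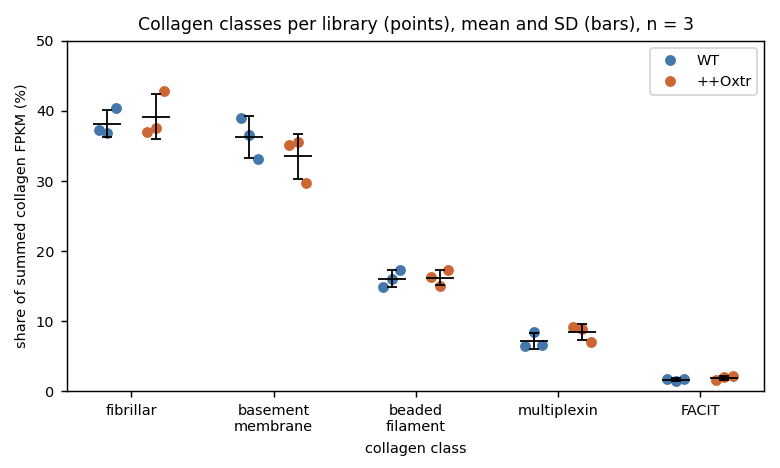
Share of the summed collagen FPKM (vertical axis, percent) held by 5 collagen classes in each library (points, WT in blue and ++Oxtr in orange), with the mean and SD over 3 libraries as black bars. WT and ++Oxtr overlap in each class; the highest fibrillar point, 42.9%, is ++Oxtr replicate 9.

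Of the fibrillar collagens, those of types I and III were split within the ++Oxtr group. Col3a1, the chain of type III collagen, was at 2667, 2651 and 2568 CPM in WT replicates 10, 11 and 12 and at 2014, 1864 and 3204 CPM in ++Oxtr replicates 7, 8 and 9. Col1a1, which supplies 2 of the 3 chains of type I collagen, was at 567, 592 and 703 CPM in WT and 506, 490 and 904 CPM in ++Oxtr. Col1a2, its partner chain, was at 902, 934 and 1077 CPM in WT and 743, 716 and 1077 CPM in ++Oxtr. In all 3 genes ++Oxtr replicates 7 and 8 lay below every WT library, and ++Oxtr replicate 9 lay at or above the highest of them. The log2 fold changes were -0.16 (SE 0.21) for Col3a1, 0.03 (SE 0.25) for Col1a1 and -0.20 (SE 0.18) for Col1a2, with edgeR adjusted p of 0.869, 0.984 and 0.77. Without ++Oxtr replicate 9 they were -0.44 (SE 0.12), -0.32 (SE 0.13) and -0.41 (SE 0.12), with unadjusted p of 0.0087, 0.0397 and 0.0121 and edgeR adjusted p of 0.38, 0.532 and 0.41. This fit drops the library that stood apart in these genes, so its p-values are a description and not a test.

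The ratio of the type I chains was higher in each ++Oxtr library than in each WT library. In FPKM the WT libraries had 1.19, 1.20 and 1.23 for Col1a1 over Col1a2, and the ++Oxtr libraries 1.29, 1.29 and 1.59. The difference was 0.20 on the log2 scale, with an exact 2-sided permutation p of 0.1, the smallest that 3 against 3 libraries allow, and an adjusted p of 0.3 over 6 ratios by the same exact test. Without ++Oxtr replicate 9 the difference was 0.10. For Col3a1 over Col1a1 the WT libraries had 3.15, 2.995 and 2.44 and the ++Oxtr libraries 2.66, 2.54 and 2.37, and the groups overlapped (exact permutation p = 0.3).

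Type V collagen is a minor component that sits inside type I fibrils and sets their diameter; its chains come from Col5a1, Col5a2 and Col5a3. These 3 genes differed in their pattern over the libraries. Col5a2 was at 291, 286 and 255 CPM in WT replicates 10, 11 and 12 and at 214, 196 and 209 CPM in ++Oxtr replicates 7, 8 and 9. Each ++Oxtr library thus lay below each WT library. Its log2 fold change of -0.43 (SE 0.09) had the smallest p among the collagens, with an edgeR adjusted p of 0.341 and a DESeq2 adjusted p of 0.0044. Over the other 12 alternatives the adjusted p ran from 0.214 to 0.609 (edgeR, or limma where named below), and the log2 fold change over all 13 from -0.48 to -0.39. Col5a1 was at 282, 309 and 284 CPM in WT and 274, 247 and 262 CPM in ++Oxtr. These groups were also apart, by a smaller step, with a log2 fold change of -0.16 (SE 0.09; edgeR adjusted p = 0.645). Antisense transcripts overlap exons of Col5a1 in GENCODE M21, and no strand setting is known. Among the other tested collagens, exons of Col15a1, Col4a1, Col4a2, Col4a3, Col6a4, Col6a6 and Col9a3 also overlap transcripts of the other strand.

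Col5a3 was at 353, 461 and 369 CPM in WT replicates 10, 11 and 12 and at 685, 629 and 245 CPM in ++Oxtr replicates 7, 8 and 9. ++Oxtr replicates 7 and 8 were the highest libraries and ++Oxtr replicate 9 was the lowest, the reverse of their order in Col1a1, Col1a2 and Col3a1. The log2 fold change was 0.40 (SE 0.37; edgeR adjusted p = 0.788). Without ++Oxtr replicate 9 it was 0.74 (SE 0.14), at an unadjusted p of 0.00118 and an edgeR adjusted p of 0.237. Here too the library that stood apart was the one dropped, so these p-values are a description and not a test. For Col5a1 over Col5a2 in FPKM the WT libraries had 1.08, 1.21 and 1.25 and the ++Oxtr libraries 1.44, 1.41 and 1.40, a difference of 0.27 on the log2 scale. The groups did not overlap (exact permutation p = 0.1, adjusted p = 0.3 over the 6 ratios).

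**Figure D3:**
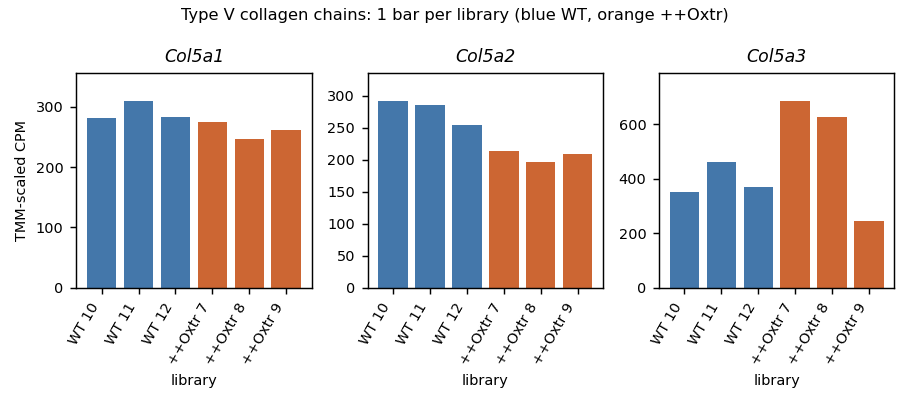
TMM-scaled CPM (vertical axes from 0, different ranges) of the type V chains in each library, WT in blue and ++Oxtr in orange. Col5a2 is at 255 CPM or more in WT and at 214 or less in ++Oxtr, while Col5a3 is at 685 and 629 CPM in ++Oxtr replicates 7 and 8 and at 245 in ++Oxtr replicate 9.

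The 250 bases before the start of Col5a1, Col5a3 and Col3a1 are shown because these fibrillar collagen genes had different patterns over the libraries. They are RefSeq windows on GRCm38.p6, each read 5′ to 3′ on the gene's strand, with capitals marking a match on either strand to the letters of the CCAAT box, to those of a TATA box spelled TATAAA, or to those of a GC box spelled GGGCGG.
Col5a1, chr2:27886175-27886424, plus strand: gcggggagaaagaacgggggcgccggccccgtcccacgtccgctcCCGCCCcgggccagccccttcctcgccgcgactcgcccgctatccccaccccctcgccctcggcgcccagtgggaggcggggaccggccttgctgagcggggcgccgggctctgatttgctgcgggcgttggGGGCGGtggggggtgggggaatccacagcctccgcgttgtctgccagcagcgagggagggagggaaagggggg
Col5a3, chr9:20815068-20815317, minus strand: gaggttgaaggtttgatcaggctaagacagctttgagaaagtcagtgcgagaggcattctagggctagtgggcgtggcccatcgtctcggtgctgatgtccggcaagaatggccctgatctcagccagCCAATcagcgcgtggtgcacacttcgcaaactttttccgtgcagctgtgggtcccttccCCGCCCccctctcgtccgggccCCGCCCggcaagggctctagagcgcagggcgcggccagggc
Col3a1, chr1:45311288-45311537, plus strand: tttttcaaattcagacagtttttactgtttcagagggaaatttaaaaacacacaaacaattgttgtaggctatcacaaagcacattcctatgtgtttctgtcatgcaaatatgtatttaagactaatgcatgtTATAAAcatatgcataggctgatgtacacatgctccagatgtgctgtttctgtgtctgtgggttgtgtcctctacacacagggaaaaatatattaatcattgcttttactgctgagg
The Col5a1 window held 2 GC boxes, 205 and 73 bases before the start, and 76.4% G or C. The Col5a3 window held a CCAAT box 122 bases before the start and 2 GC boxes at 63 and 41 bases. The Col3a1 window had 35.2% G or C and a TATAAA match 117 bases before the start. No matches overlapped in these windows. RefSeq gave 38 windows for 35 of the 44 collagens. Col5a2 and Col1a1 were among the 9 without a window, so they could not be shown. A GC box was in 22 of them, or 57.9%, against 32.7% of the 32851 windows of this length that were counted, which did not cover every mouse chromosome. A CCAAT box was in 34.2% against 33.8%, and TATAAA in 13.2% against 12.4%. These matches are letters in a window and were not tied to any difference between libraries.

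The remaining fibrillar collagens were of low level in fat. Col27a1, a fibrillar collagen known from cartilage, was at 4.25, 5.83 and 7.34 CPM in WT and 6.91, 12.5 and 12.8 CPM in ++Oxtr, and the groups overlapped through WT replicate 12 and ++Oxtr replicate 7. Its log2 fold change was 0.88 (SE 0.30), at an unadjusted p of 0.0201 and an edgeR adjusted p of 0.469. The unadjusted p was 0.0652 without WT replicate 10, 0.0534 without WT replicate 11, 0.0594 without ++Oxtr replicate 8 and 0.0609 without ++Oxtr replicate 9. The type XI chains Col11a1 and Col11a2, also cartilage collagens, had 8 to 49 reads per library and log2 fold changes of 0.37 (SE 0.63) and 0.44 (SE 0.35).

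In the basement membrane class Col4a1, Col4a2 and Col4a5 were on the lower side in ++Oxtr and Col4a3, Col4a4 and Col4a6 on the higher side, and none passed the test. Col4a1, whose product pairs with that of Col4a2 in the type IV network of most tissues, was at 2509, 2443 and 1976 CPM in WT replicates 10, 11 and 12 and at 2015, 1847 and 1920 CPM in ++Oxtr replicates 7, 8 and 9. Col4a2 was at 1472, 1471 and 1225 CPM in WT and 1264, 1173 and 1114 CPM in ++Oxtr. In both genes WT replicates 10 and 11 were above all other libraries, and WT replicate 12 lay with the ++Oxtr libraries. The log2 fold changes were -0.26 (SE 0.13) and -0.23 (SE 0.12), with edgeR adjusted p of 0.614 and 0.629. Col4a2 over Col4a1 in FPKM stayed between 0.654 and 0.717 in all libraries, and the groups overlapped (exact permutation p = 0.6).

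Col4a1 and Col4a2 start head to head on mouse chromosome 8. In GENCODE M21 on GRCm38, Col4a1 runs from 11198423 to 11312826 on the minus strand and Col4a2 from 11312805 to 11449287 on the plus strand, so their first exons share 22 bases. The shared stretch is shown because reads in it belong to both chains, with no strand setting known.
Col4a1 and Col4a2, chr8:11312805-11312826, plus strand: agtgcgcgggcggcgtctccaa

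The other type IV chains form the networks of kidney glomerulus, lung and smooth muscle. Col4a5 was at 63.6, 72.9 and 87.8 CPM in WT and 53.2, 51.4 and 82.5 CPM in ++Oxtr, with a log2 fold change of -0.26 (SE 0.21). Col4a3 was at 7.67, 10.2 and 7.47 CPM in WT and 7.54, 15.6 and 10.7 CPM in ++Oxtr. Col4a4, its head-to-head neighbour on mouse chromosome 1, was at 16.2, 18.7 and 23.5 CPM in WT and 16.1, 38.8 and 23.0 CPM in ++Oxtr. Both were highest in ++Oxtr replicate 8, the library with the most multiciliated markers (168 CPM). Their log2 fold changes were 0.42 (SE 0.28) and 0.42 (SE 0.32), and that of Col4a6 was 0.11 (SE 0.19). Without ++Oxtr replicate 8 they were 0.11 for Col4a3 and 0.0058 for Col4a4.

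Among beaded-filament collagens, the 3 main chains of type VI overlapped between the groups. Col6a1 was at 503, 515 and 544 CPM in WT and 511, 424 and 556 CPM in ++Oxtr. Col6a2 was at 472, 499.8 and 468 CPM in WT and 475, 402 and 514 CPM in ++Oxtr. Col6a3, the long chain whose cleaved end is the adipose factor endotrophin, was at 332, 416 and 339 CPM in WT and 313, 256 and 368 CPM in ++Oxtr. In all 3 genes ++Oxtr replicate 8 was the lowest library and ++Oxtr replicate 9 the highest of its group. The log2 fold changes were -0.07 (SE 0.12), -0.05 (SE 0.11) and -0.21 (SE 0.16), and the first pair changed sign without ++Oxtr replicate 8, at 0.03 and 0.04. Col6a2 over Col6a1 in FPKM was 0.452 to 0.510 in WT and 0.487 to 0.4996 in ++Oxtr.

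The alternative type VI chains varied more. Col6a5 was at 129, 259 and 257 CPM in WT and 136, 141 and 301 CPM in ++Oxtr, so that WT replicate 10 sat with ++Oxtr replicates 7 and 8, and ++Oxtr replicate 9 sat with the other WT libraries. Its log2 fold change was -0.16 (SE 0.40). Col6a6 was at 53.7, 76.3 and 69.4 CPM in WT and 48.2, 44.3 and 61.1 CPM in ++Oxtr, with a log2 fold change of -0.38 (SE 0.17; unadjusted p = 0.0561, edgeR adjusted p = 0.567). Col6a4 had 8 to 25 reads per library.

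The FACIT collagens were led by Col14a1, which binds to fibrils of type I, at 128, 109 and 127 CPM in WT and 98.6, 114 and 164 CPM in ++Oxtr. Its log2 fold change was 0.05 (SE 0.19), and -0.19 without ++Oxtr replicate 9. Col16a1 was at 31.9, 30.0 and 31.0 CPM in WT and 28.8, 37.9 and 37.3 CPM in ++Oxtr, with a log2 fold change of 0.16 (SE 0.12). Col12a1, a fibril-surface collagen of tendon and other loaded tissue, was at 9.32, 9.43 and 8.39 CPM in WT and 9.94, 10.5 and 19.0 CPM in ++Oxtr. The groups did not overlap, with ++Oxtr replicates 7 and 8 just above WT and ++Oxtr replicate 9 far above it. The log2 fold change was 0.53 (SE 0.26; edgeR adjusted p = 0.599), and 0.17 without ++Oxtr replicate 9. Col20a1 was at 9.20, 6.80 and 8.52 CPM in WT and 10.1, 8.23 and 14.1 CPM in ++Oxtr, with overlapping groups and ++Oxtr replicate 9 the highest. For Col20a1 and Col9a3 the log2 fold changes were 0.40 (SE 0.23) and 0.51 (SE 0.49), and Col9a3 had 7 to 25 reads per library. Exons of Col9a3 overlap those of Tcfl5 on the other strand in GENCODE M21, and no strand setting is known. Exons of Col20a1 overlap another transcript on the same strand.

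Of the other classes, the multiplexins were the most abundant. Col15a1, which bridges basement membrane and fibrils, was at 432, 667 and 426 CPM in WT and 618, 564 and 511 CPM in ++Oxtr, with WT replicate 11 the highest of all. Without that library the log2 fold change went from 0.15 (SE 0.19) to 0.40 (SE 0.12; edgeR adjusted p = 0.592). Col18a1, the source of endostatin, was at 189, 180 and 189 CPM in WT and 188, 154 and 181 CPM in ++Oxtr. Col28a1 was at 22.4, 21.2 and 29.1 CPM in WT and 19.8, 19.6 and 21.5 CPM in ++Oxtr. Col7a1, the anchoring fibril collagen of skin, was at 2.005, 1.87 and 1.44 CPM in WT and 1.75, 1.71 and 2.23 CPM in ++Oxtr.

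Several collagens of low level were highest in ++Oxtr replicates 8 and 9. Col8a2, a network collagen known from the corneal endothelium, was at 4.13, 3.47 and 5.18 CPM in WT and 3.77, 13.6 and 8.50 CPM in ++Oxtr. The transmembrane collagen Col13a1 was at 0.295, 0.624 and 1.11 CPM in WT and 0.584, 2.44 and 1.48 CPM in ++Oxtr. Col23a1, also transmembrane, was at 3.83, 4.30 and 6.69 CPM in WT and 4.73, 8.83 and 11.1 CPM in ++Oxtr. In these genes ++Oxtr replicate 7 lay within the WT range. Their log2 fold changes were 1.01 (SE 0.44), 1.14 (SE 0.68) and 0.73 (SE 0.36), with edgeR adjusted p of 0.567, 0.662 and 0.601. Without ++Oxtr replicate 8 Col8a2 was at 0.52 and Col13a1 at 0.60. Epithelial markers summed to 36.9, 8.53 and 37.5 CPM in WT and 25.0, 126 and 36.0 CPM in ++Oxtr, and all 12 tested multiciliated markers were on the higher side. The part of these cells in the collagen values was not tested. Col17a1, a collagen of epithelial hemidesmosomes, was at 1.30, 0.486 and 0.983 CPM in WT and 0.956, 0.856 and 0.405 CPM in ++Oxtr, from 6 to 22 reads per library. Col8a1, the network collagen of highest level, was at 18.0, 14.7 and 13.2 CPM in WT and 16.4, 12.1 and 14.8 CPM in ++Oxtr, at a log2 fold change of -0.08 (SE 0.17).

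**Figure D4:**
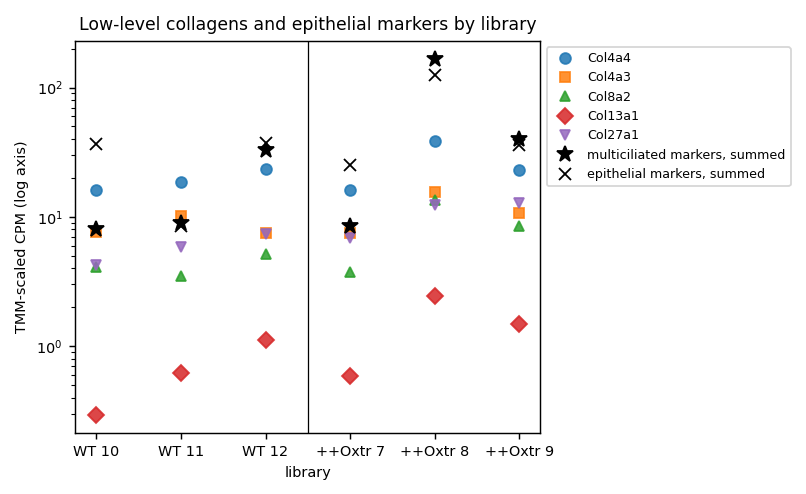
TMM-scaled CPM on a log axis of 5 collagens chosen after their values were seen (coloured symbols), with the summed level of multiciliated (stars) and epithelial (crosses) markers, in each library. ++Oxtr replicate 8 is the highest library for both marker sums, at 168 and 126 CPM, and for Col4a3, Col4a4, Col8a2 and Col13a1; Col27a1 is at 12.5 CPM there and at 12.8 in ++Oxtr replicate 9.

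The 9 collagens that were too low to test had 0 to 23 reads per library. Col25a1, a collagen of neurons and muscle, had 0, 2 and 4 reads in WT and 0, 23 and 7 in ++Oxtr. Col26a1 had 2 reads in each WT library and 0, 11 and 7 in ++Oxtr, and the cartilage chain Col9a2 had 1, 1 and 0 in WT and 0, 6 and 7 in ++Oxtr. All 3 were at 0 in ++Oxtr replicate 7. Col2a1, the main cartilage collagen, had 0 reads in WT and at most 2 in ++Oxtr. Col9a1, Col10a1 and Col24a1 had at most 3 reads in a library, and Col19a1 and Col22a1 at most 7.

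The collagens also varied between libraries of the same genotype. ++Oxtr replicate 9 was the highest library for 14 of the 35 tested collagens, or 40.0%, where it was the highest for 21.1% of all genes tested. ++Oxtr replicate 8 was the lowest for 14, or 40.0%, where it was the lowest for 17.6% of all genes. Without ++Oxtr replicate 9, 7 collagens had an unadjusted p under 0.05 on the lower side, with 4.93% of all genes tested as background, and 1 (Col5a3) on the higher side, with 4.27%. The lower ones were Col1a1, Col1a2, Col3a1, Col5a2, Col4a5, Col6a3 and Col6a6, with log2 fold changes of -0.52 to -0.32. Without ++Oxtr replicate 7, 8 collagens were past that p on the higher side, with a background of 5.85%, and 1 on the lower side, with 4.57%. The higher ones were Col12a1, Col16a1, Col27a1, Col8a2, Col13a1, Col23a1, Col4a3 and Col4a4. Without WT replicate 10 there were 2 lower (background 4.40%) and 0 higher (4.25%), and without WT replicate 11 there was 1 lower (3.49%) and 1 higher (3.84%). Without WT replicate 12 there were 3 lower (2.82%) and 2 higher (3.52%), and without ++Oxtr replicate 8 there was 1 lower (3.20%) and 2 were higher (3.90%). No collagen passed an edgeR adjusted p of 0.05 with any library left out. Col5a2 was the only collagen past an unadjusted p of 0.05 with each of the 6 libraries left out in turn. How many of all genes tested did so was not counted. The 6 fits share most of their libraries, so they are not independent of each other.

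**Figure D5:**
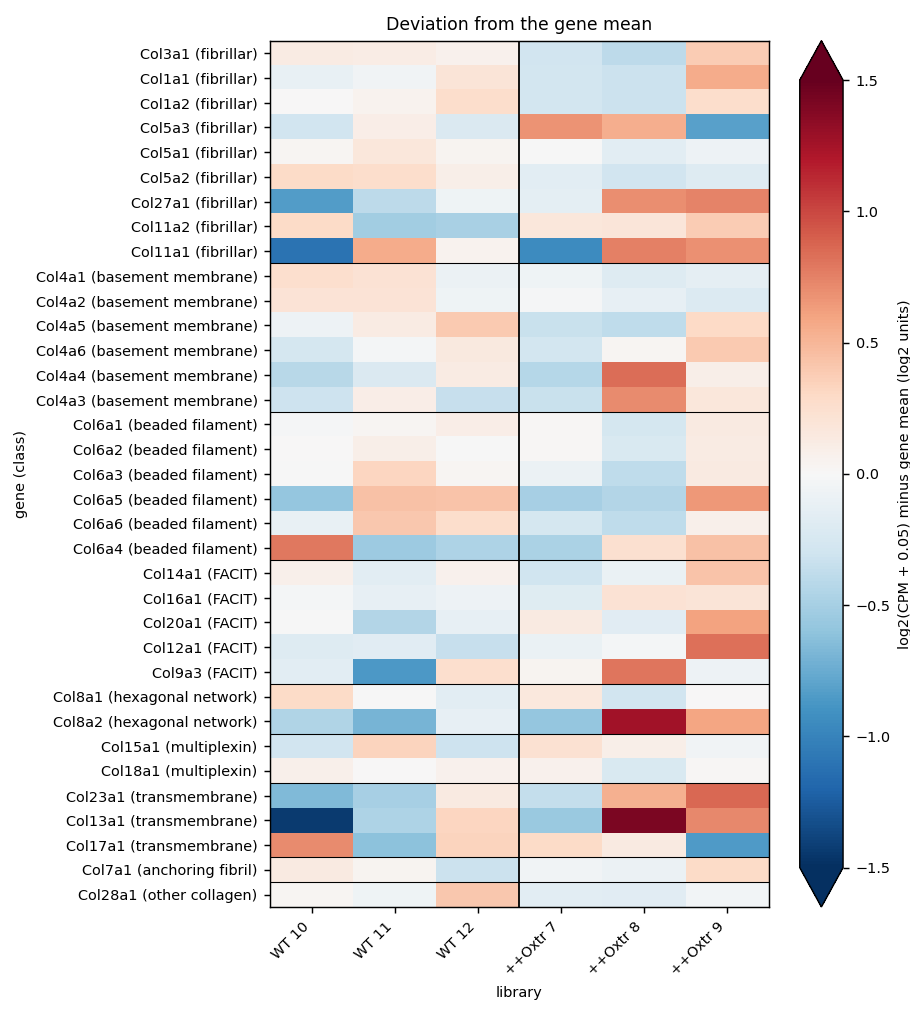
Level of the 35 tested collagens (rows, by class) in the 6 libraries (columns; WT left of the line), as log2(CPM + 0.05) minus the gene's mean, with colours ending at ±1.5. Red in ++Oxtr replicate 9 runs through Col3a1, Col1a1, Col1a2 and the FACIT Col12a1, where ++Oxtr replicates 7 and 8 are blue or pale; Col5a3 shows the reverse.

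Collagen chains need a set of partner proteins to be folded, cut, cross-linked and bound, and these were read from lists of known members. In 9 such lists 88 genes were tested and none passed an edgeR adjusted p of 0.05. At an unadjusted p under 0.05 there were 17 on the lower side and 0 on the higher side, against backgrounds of 4.47% and 4.44% of all genes. The lists were chosen with earlier results of these data known, so this count is a description and not a test of enrichment. Of 14 tested enzymes that hydroxylate or glycosylate the chains, 10 lay on the lower side, and the median log2 fold change was -0.15. The prolyl hydroxylase P4ha2 was at 37.4, 28.9 and 28.8 CPM in WT and 28.3, 20.8 and 18.9 CPM in ++Oxtr, the lysyl hydroxylase Plod1 was at -0.23 (SE 0.09) on the log2 fold change scale, the prolyl 3-hydroxylase P3h1 at -0.20 (SE 0.08) and P4ha1 at -0.17 (SE 0.27). The collagen chaperone Serpinh1 had a mean of 557 ± 94.1 CPM over the WT libraries and of 553 ± 28.0 CPM over the ++Oxtr libraries (SD, n = 3). Sec24d, a coat protein of the vesicles that carry procollagen, showed a log2 fold change of -0.36 (SE 0.12). Sparc and Fkbp14, which bind and fold procollagen, had -0.29 (SE 0.13) and -0.31 (SE 0.14). Of 7 tested genes that remove propeptides 5 were on the lower side, with Bmp1 at -0.21 (SE 0.08), Tll1 at -0.49 (SE 0.20) and Adamts2 at -0.18 (SE 0.10). Of 6 cross-linking genes 5 were on the lower side, and lysyl oxidase, Lox, was at -0.02 (SE 0.11). Its relatives Loxl3 and Loxl1 were at -0.29 (SE 0.14) and -0.25 (SE 0.18), and peroxidasin, Pxdn, which cross-links type IV collagen, at -0.19 (SE 0.14).

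The proteins that coat fibrils lay on the lower side in 11 of 12, against 49.2% of all genes, with a median log2 fold change of -0.29. On that side 5 were past an unadjusted p of 0.05, against 4.47% of all genes tested. DESeq2 passed 3 of them at an adjusted p of 0.05, against 0.708% of all genes. Ogn, a small leucine-rich proteoglycan, was at 278, 361 and 263 CPM in WT and 198, 166 and 193 CPM in ++Oxtr (DESeq2 adjusted p = 0.00212, edgeR adjusted p = 0.287). Prelp, which links basement membrane to fibrils, was at 475, 459 and 402 CPM in WT and 336, 213 and 174 CPM in ++Oxtr (DESeq2 adjusted p = 0.0128, edgeR adjusted p = 0.393). Fibronectin, Fn1, was at 990, 766 and 929 CPM in WT and 630, 590 and 630 CPM in ++Oxtr (DESeq2 adjusted p = 0.00318, edgeR adjusted p = 0.347). In all 3 genes each ++Oxtr library lay below each WT library, as held for 7.61% of all genes tested. These 3 were named for having the smallest p in their list. Decorin, Dcn, was at a log2 fold change of -0.24 (SE 0.12).

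Of 10 basement membrane partners 5 lay on the lower side, and their median log2 fold change was -0.06. The laminin genes Lama2, Lamc1 and Lamb2 were at log2 fold changes of -0.28 (SE 0.09), -0.24 (SE 0.10) and -0.25 (SE 0.12). Of 9 tested genes of collagen breakdown and its inhibition 7 were on the lower side. The protease genes Ctsk, Mmp9 and Mmp2 were at log2 fold changes of -0.51 (SE 0.14), -0.77 (SE 0.28) and -0.35 (SE 0.21), and the inhibitor gene Timp2 one of -0.40 (SE 0.15). Mmp2 was at -0.53 without WT replicate 10 and at -0.076 without WT replicate 11. Macrophage markers were on the lower side in 11 of 12, against 49.2% of all genes tested. At an unadjusted p under 0.05, 7 were on that side, against 4.47%. DESeq2 passed 3 at an adjusted p of 0.05, against 0.708%, and edgeR passed 0. Their sum was 1251 to 1599 CPM in WT and 955 to 1109 CPM in ++Oxtr. The part of macrophages in the values of the breakdown genes was not tested. Among 11 tested collagen receptors Antxr2, an endocytic receptor of collagen VI, was at 122, 144 and 120.5 CPM in WT and 95.6, 84.5 and 76.2 CPM in ++Oxtr (DESeq2 adjusted p = 0.00382, edgeR adjusted p = 0.287). Its relative Antxr1 was at -0.25 (SE 0.13) and the discoidin receptor Ddr1 at -0.45 (SE 0.25) on the log2 fold change scale. The integrin gene Itga1 had a log2 fold change of 0.01 (SE 0.10). The profibrotic signal Tgfb1 had a mean of 46.1 ± 1.05 CPM over the WT libraries and of 45.9 ± 0.585 CPM over the ++Oxtr libraries (SD, n = 3), and 0 of 10 genes of that list had an unadjusted p under 0.05. In it the signal mediator Smad3 was at 0.32 (SE 0.14), its inhibitory relative Smad7 at -0.34 (SE 0.23) and the ligand gene Tgfb3 at -0.32 (SE 0.15).

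Fibroblast and stromal progenitor markers, from the cells that make most fibrillar collagen, were on the lower side in 9 of 12, with a median log2 fold change of -0.07 and a summed level of 7848 to 8640 CPM in WT and 7831 to 9783 CPM in ++Oxtr. Pdgfra, a defining marker of these cells, was at 95.8, 82.3 and 110 CPM in WT and 106, 115 and 107 CPM in ++Oxtr. At an unadjusted p under 0.05, 2 markers of this list, Scara5 and Dpep1, were on the lower side and 0 on the higher side. Over all genes tested the shares were 4.47% and 4.44%. Scara5, a ferritin receptor, was at 187, 218 and 217.5 CPM in WT and 120.0, 127 and 108 CPM in ++Oxtr. Its groups did not overlap, as held on the lower side for 7.61% of all genes tested. The log2 fold change of Scara5, -0.81 (SE 0.10), had an edgeR adjusted p of 0.121. No gene tested had a smaller one, and Scara5 passed an adjusted p of 0.05 by DESeq2. Dpep1 was at -0.29 (SE 0.12). The endothelial sum was 2037 to 2140 CPM in WT and 1808 to 2165 CPM in ++Oxtr, and the pericyte and smooth muscle sum 1045 to 1282 and 931 to 1356 CPM. Of the 12 endothelial markers 9 were on the lower side, against 49.2% of all genes tested, with a median log2 fold change of -0.11. In 3 of them the groups did not overlap, with ++Oxtr lower, against 7.61%. At an edgeR unadjusted p under 0.05, 1 was lower, against 4.47%. Of 9 tested pericyte and smooth muscle markers 5 were on the lower side. The groups overlapped in the fibroblast, endothelial and pericyte sums. In the endothelial as in the pericyte sum ++Oxtr replicate 9 was the highest library and ++Oxtr replicate 8 the lowest. Some collagens had other extremes: Col4a1 and Col4a2 were highest in WT replicate 10, and Col4a2 was lowest in ++Oxtr replicate 9. The part of these cells in the collagen values was not tested.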

How the data were processed

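RNA of mouse white adipose tissue was sequenced in 3 WT and 3 ++Oxtr libraries, grouped by sample titles. Libraries came from Trizol-extracted total RNA with a NEBNext Ultra II kit, per the labels' protocols. The deposited table, made by the authors, gives raw read counts and FPKM per gene, per the file headers. The submitters' processing notes name mm10; aligner, counter, annotation and strand setting were not stated in the sources used here. Of the 44 collagens, 3 had the start and end of GENCODE M21 on GRCm38 and 43 the same span, so positions were taken from GENCODE M21.

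Counts were tested with edgeR 4.0.16 (R 4.3.3; quasi-likelihood F-test, TMM, robust, filterByExpr, no covariates) over 13566 of 21959 genes, with Benjamini-Hochberg adjustment over all of them at 0.05. CPM are TMM-scaled, and SE is the fold change over the square root of F. Ratios and class shares used the deposited FPKM, with exact permutation tests over 20 assignments. Within groups, squared differences between the counts of library pairs were 18.2 to 50.7 times those of sampling noise (chi-squared over degrees of freedom). The alternatives were DESeq2 1.42.0, limma 3.58.1 (voom with quality weights, or log2 of FPKM plus 0.5), 2 other scalings, 2 other filters and each library left out. The fits were tested on simulated counts.

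Members and lists were chosen with earlier results of these data known. Library values are given for the 3 highest members by mean FPKM in each class, members with an unadjusted p under 0.05 and chains of the 6 ratios. In each partner list the first gene and the 3 with the smallest p are named. Other genes given, Col12a1 and the fibroblast markers among them, were chosen after their values were seen. Figures were drawn with matplotlib 3.10.9.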

Additional observations from a re-analysis of the deposited data

How the results depend on the processing

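No collagen or partner gene passed an edgeR adjusted p of 0.05 under another scaling, another filter or with any library left out. DESeq2 passed 190 genes of all tested, among them Col5a2, the only collagen past an adjusted p under any alternative. Collagens at an unadjusted p under 0.05 numbered 4 lower and 2 higher with DESeq2 (4.51% and 5.04% of all genes), 3 and 0 with limma-voom (5.44% and 5.20%), and 4 and 0 with limma on log2 FPKM (6.66% and 3.13%). With no filter 2 were lower (3.76%). With 1 library left out they ran from 1 to 7 lower and from 0 to 8 higher. The FACIT median log2 fold change was 0.16 with limma on log2 FPKM and 0.17 to 0.50 with a library left out. Of the 35 collagens tested, 24 kept their direction in every alternative that tested them, and the filter at a mean of 1 CPM left out Col9a3, Col17a1 and Col6a4. The direction turned with limma-voom for Col11a1 (-0.076), Col14a1 (-0.094), Col1a1 (-0.19), Col4a6 (-0.070), Col8a1 (0.0046), Lox (0.0054) and Serpinh1 (0.048). It turned with limma on log2 FPKM for Col14a1 (-0.023), Col1a1 (-0.067) and Itga1 (-0.031), and with upper quartile scaling for Lox (0.0044), Serpinh1 (0.023) and Tgfb1 (0.020). With a library left out, log2 fold changes spanned 0 for Col14a1 (-0.19 to 0.20), Col17a1 (-0.61 to 0.014), Col1a1 (-0.32 to 0.19), Col4a6 (-0.077 to 0.26), Col6a1 (-0.16 to 0.035), Col6a2 (-0.13 to 0.044), Col6a4 (-0.19 to 0.65), Col6a5 (-0.63 to 0.043), Col7a1 (-0.033 to 0.19), Col8a1 (-0.18 to 0.051), Itga1 (-0.067 to 0.069), Lox (-0.12 to 0.067), P4ha1 (-0.37 to 0.20), Serpinh1 (-0.10 to 0.13) and Tgfb1 (-0.018 to 0.011). The same held for the log2 differences of Col6a2 over Col6a1 (-0.030 to 0.057) and Col4a1 over Col1a1 (-0.43 to 0.059). The cause was not tested. The widest standard errors, 0.49 to 0.68, were those of Col9a3, Col17a1, Col6a4, Col11a1 and Col13a1, which had at most 37 reads in a library, but Col5a3 and Col6a5 (0.37 and 0.40) had wider ones than Col7a1 (0.34, at most 34 reads). No paired analysis was possible because no replicate number occurs in both WT and ++Oxtr.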
